A study of Mus musculus with 12 samples.

Results

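In all, 10 genes of the naive pluripotency network, Prdm14, Klf5, Tfcp2l1, Tbx3, Sall4, Nr5a2, Zfp42, Dppa3, Tdgf1 and Gdf3, were described by the FLAG-Zscan4 regions that surround them. A region was assigned to a gene when its midpoint lay in the gene body or within 100 kb of it, and 19 of the 4973 listed regions were reached in this way. Gdf3 and Dppa3 are neighbours and share both of their regions, so the 19 regions formed 21 pairs of a region and a gene. The genes were chosen by the listed positions and scores of regions near them in these same data, so the number of regions, their distance and their score are given as a description with no test.

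The study placed a FLAG-tagged Zscan4c coding sequence, on a pCMV plasmid, into J1 cells, a mouse embryonic stem (ES) cell line of strain 12910la, and mapped the tagged protein and histone marks on chromatin. The cells had been grown on gelatin with serum and leukaemia inhibitory factor (LIF), transfected with 1000 ng of plasmid, kept in 500 ug/ml G418 from 24 h after transfection for 10 days, and then isolated as single clones. The list used here came from 1 immunoprecipitation with an anti-FLAG antibody from the overexpressing cells, labelled OE_Zscan4, whose input is labelled OE_Input. The other 10 of the 12 samples, H3K27ac, H3K14ac and H3K4me1 immunoprecipitations and inputs of overexpressing and wild-type cells, were not analysed here. The plasmid has a viral promoter, so the tagged protein was not under the control of the Zscan4c gene. No sample had a replicate, and sequencing depth is unknown because the list holds no read counts. A list of regions cannot show whether the cells expressed ES cell genes, so the label could not be checked against markers.

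Naive pluripotency is the state of the pre-implantation epiblast and of mouse ES cells grown with LIF. A core of transcription factors, Oct4 (encoded by Pou5f1), Sox2 and Nanog, acts there with a wider set that includes Klf5, Tfcp2l1, Tbx3, Nr5a2, Sall4 and Prdm14, which hold back differentiation. Zscan4 proteins mark a different and short-lived state in which a few ES cells transiently resemble the 2-cell embryo, and they are known to prefer DNA with the letters TGCACAC. Genes of this network are commonly regulated by enhancers that lie many kilobases away, often beyond other genes, which is why the side, the distance and the genes in between are given for each region.

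The DNA letters of the 19 regions were not used here, because no genome sequence was used. What could be read was the sequence just before the annotated start of 4 of the 10 genes, from RefSeq (GRCm38.p6, the same assembly as mm10), and these 4 are shown because their strand fixes which regions lie upstream. Each is the 250 bases before an annotated start of the gene, written 5′ to 3′ on the strand of the gene. For Tfcp2l1 that start is at 118627945, while the gene span used for distances begins at 118627923, so the last bases of its sequence lie inside that span. Capitals mark the octamer ATGCAAAT, the letters bound by Oct4, and the GC box CCCGCCC, bound by Sp and Klf factors, each on either strand. These 2 motifs were chosen after the sequences had been seen.
Zfp42, minus strand (chr8:43307010-43307259): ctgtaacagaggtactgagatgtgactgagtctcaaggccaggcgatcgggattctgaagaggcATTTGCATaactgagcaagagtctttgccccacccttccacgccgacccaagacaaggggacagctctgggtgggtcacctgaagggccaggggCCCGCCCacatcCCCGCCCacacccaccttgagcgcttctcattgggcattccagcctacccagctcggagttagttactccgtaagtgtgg
Tfcp2l1, plus strand (chr1:118627695-118627944): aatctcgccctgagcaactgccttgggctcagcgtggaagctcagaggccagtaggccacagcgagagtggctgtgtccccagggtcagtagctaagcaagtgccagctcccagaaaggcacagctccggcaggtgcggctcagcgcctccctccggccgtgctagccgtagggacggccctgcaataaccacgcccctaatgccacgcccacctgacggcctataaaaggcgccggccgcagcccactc
Nr5a2, minus strand (chr1:136960449-136960698): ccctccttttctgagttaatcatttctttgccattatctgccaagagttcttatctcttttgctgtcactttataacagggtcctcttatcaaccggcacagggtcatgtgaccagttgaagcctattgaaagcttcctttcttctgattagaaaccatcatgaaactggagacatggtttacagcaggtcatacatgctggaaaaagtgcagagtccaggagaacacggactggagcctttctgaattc
Tdgf1, minus strand (chr9:110946159-110946408): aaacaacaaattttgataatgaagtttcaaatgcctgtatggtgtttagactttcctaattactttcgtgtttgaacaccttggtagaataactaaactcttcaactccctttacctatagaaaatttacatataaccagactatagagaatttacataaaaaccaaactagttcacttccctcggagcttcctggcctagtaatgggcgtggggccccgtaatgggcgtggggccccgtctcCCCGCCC

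The Zfp42 sequence held 1 octamer and 2 GC boxes, and the Tdgf1 sequence held 1 GC box at its 3′ end, next to the first base of the gene. The Tfcp2l1 and Nr5a2 sequences held neither, and nor did the sequence before a second annotated start of Nr5a2. Of all 32851 such windows in the table, 1.6% held the octamer and 23.4% the GC box. TGCACAC was in none of the 5 windows of the 4 genes and in 3.67% of all windows, and a run of at least 12 bases of TG or CA repeat was in none of the 5 and in 0.938% of all. None of the 19 FLAG-Zscan4 regions overlapped an annotated start window of any gene in the table, so the printed sequences are not sequences of regions.

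All 10 genes had a region in the body or within 100 kb, as their choice required, against 40.3% of 21792 protein-coding genes. Within 50 kb it was again all 10, against 26.3% of protein-coding genes, and within 10 kb or in the body it was 4 of 10 (Nr5a2, Klf5, Gdf3 and Dppa3) against 11.8%. Nr5a2 was the 1 gene with a region in its body, where 7.7% of protein-coding genes had one. Nothing is read from these shares, since the same positions had chosen the genes. Of the 21 pairs, 10 lay on the side of lower coordinates, 10 on the side of higher coordinates and 1 inside the gene, with a median distance of 23.5 kb from the gene body. Over all protein-coding genes 15.7% of such pairs lay inside the gene. Prdm14 had 4 regions, Klf5 and Sall4 had 3 each, Nr5a2, Zfp42, Dppa3 and Gdf3 had 2 each, and Tfcp2l1, Tbx3 and Tdgf1 had 1 each. At the rate of its chromosome, a window of that size would hold between 0.337 (Dppa3) and 0.809 (Nr5a2) regions.

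**Figure D1:**
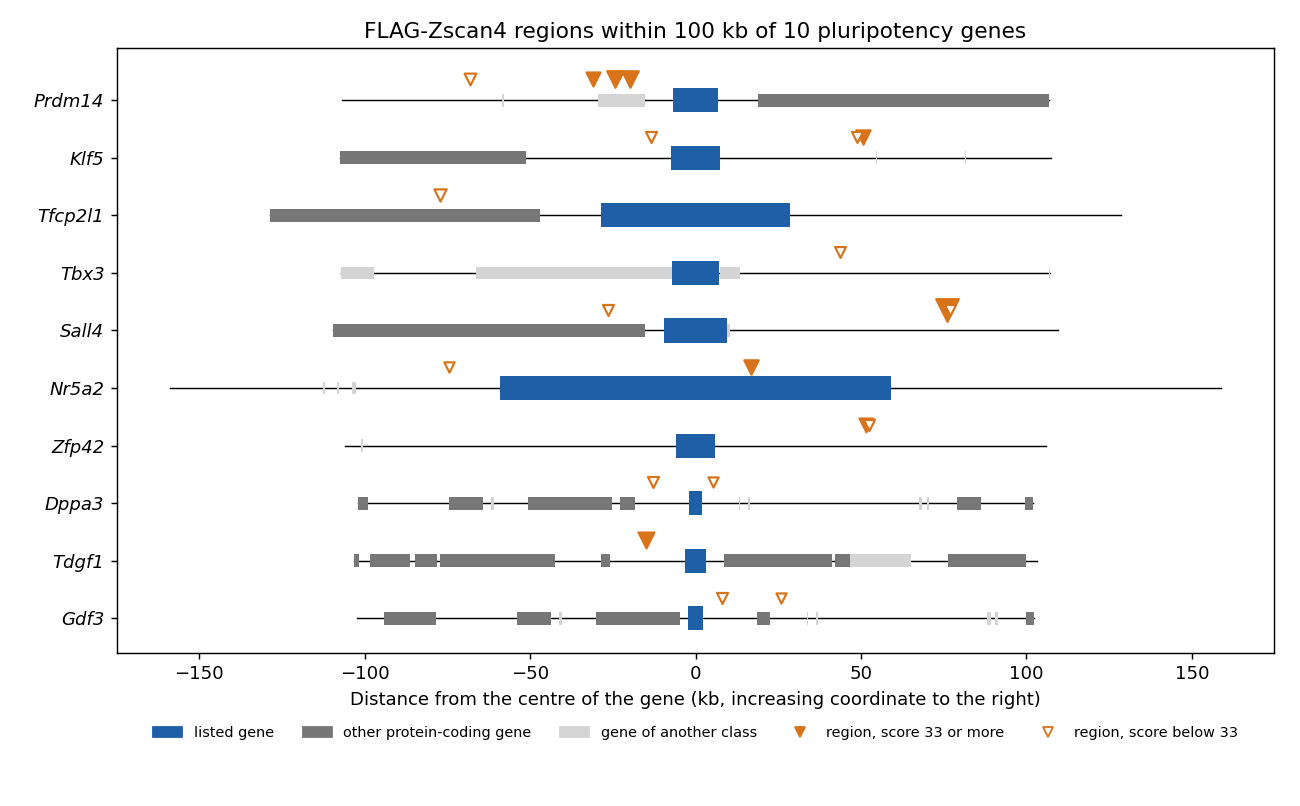
Positions of FLAG-Zscan4 regions (triangles, larger for a higher score, filled at a score of 33 or more) around each gene (blue), with other genes in grey, against the distance in kb from the centre of the gene. Prdm14 has 4 regions on 1 side, Nr5a2 has the 1 region inside a listed gene, and the same 2 regions appear in the rows of Dppa3 and Gdf3.

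Prdm14, a zinc finger protein that represses differentiation genes and keeps DNA methylation low in naive cells, had the most regions. The gene lies on chromosome 1 (13113428 to 13127163), and all 4 of its regions lay on the side of lower coordinates, at 13.0, 17.6, 24.2 and 61.4 kb from the gene body. Their scores were 65, 66, 44 and 28 in that order, where the score is a whole number that the authors attached to each region, without a stated scale. The 2 nearest, at 13095579 to 13096157 and 13100339 to 13100582, were both inside Gm39592, a long non-coding RNA gene of 14.3 kb that ends before Prdm14 begins. The third, at 13089126 to 13089344, lay just beyond that gene, and the fourth also lay beyond the pseudogene Gm5250. No protein-coding gene stood between any of the 4 and Prdm14. For the fourth region the nearest protein-coding gene was Slco5a1, a transporter family gene, at 59.2 kb, so it lay about midway between Slco5a1 and Prdm14. The 3 nearest regions stood 6.23 and 4.18 kb apart, the gap being counted between their edges, and no region was listed on the other side of Prdm14 within 100 kb.

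Klf5 is a Kruppel-like zinc finger factor that shares targets with Klf2 and Klf4 in ES cells (chromosome 14, 99298691 to 99313412). It had regions on both sides. One lay 6.05 kb from the gene on the side of lower coordinates (99292488 to 99292791, score 23) with no gene in between. The other 2 lay on the opposite side at 41.4 kb (99354661 to 99354945, score 23) and 43.3 kb (99356271 to 99357184, score 46), beyond the short pseudogene Gm22984. These 2 stood 1.32 kb apart, and the outer one was the widest of the 19, at 914 bp. Klf5 was the nearest protein-coding gene to all 3.

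Tfcp2l1, a factor of the grainyhead family that acts downstream of LIF, and Tbx3, a T-box factor, had 1 region each, both with scores below the list's median of 33. The region of Tfcp2l1 (chromosome 1, gene 118627923 to 118685168) lay 48.5 kb upstream of the gene (118579283 to 118579531, score 31). It was inside the body of Clasp1, a gene for a microtubule-binding protein that is the neighbour of Tfcp2l1 on that side. The region of Tbx3 (chromosome 5, gene 119670534 to 119684724) lay 36.7 kb from the gene on the side of higher coordinates (119721299 to 119721521, score 22), past the long non-coding RNA gene Tbx3os2. The same region was 75.1 kb from Tbx5, a paralog of Tbx3 that is better known in heart and forelimb, with the gene Gm42017 in between. Tbx3 was the nearer of these T-box genes.

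Sall4, a spalt-like zinc finger factor required in the early embryo (chromosome 2, 168748332 to 168767201), had the region of highest score and also the most distant ones. A region of score 132 lay 66.4 kb from the gene on the side of higher coordinates (168833503 to 168833796), and 92.4% of the list had a lower score. A second region of score 23 followed after a gap of 551 bp (168834348 to 168834737, at 67.3 kb). Both were slightly closer to Zfp64, the next protein-coding gene, which began 59.7 and 58.8 kb away. No gene stood wholly between them and Sall4, while the end of the long non-coding RNA gene Gm14261, which overlaps Sall4, reached into the interval. The third region lay 17.0 kb away on the other side (168731211 to 168731449, score 23), inside Atp9a, a gene of the phospholipid-transporting ATPase family.

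Nr5a2, an orphan nuclear receptor that can activate Pou5f1, is the longest of the 10 genes at 118 kb (chromosome 1, 136842562 to 136960448). The region in its body (136918025 to 136918359, score 47, width 335 bp) lay 42.3 kb downstream of the outer annotated start, whose sequence is printed above, and 35.4 kb downstream of the inner one. Whether it falls in an exon or an intron was not analysed here. A second region of score 19 lay 15.5 kb beyond the 3′ end of the gene (136826836 to 136827234), with no gene in between. Neither region was near a start site of Nr5a2.

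Zfp42, which encodes Rex1, a widely used marker of naive ES cells, lies on chromosome 8 (43295067 to 43307009). Its 2 regions formed a close pair upstream of the start, at 45.6 kb (43352465 to 43352717, score 43, width 253 bp) and 46.5 kb (43353389 to 43353612, score 23, width 224 bp), with a gap of 671 bp. No other gene of any class stood between them and Zfp42, which was the nearest gene to both. Chromosome 8 carried 3.65 regions per Mb, the highest rate among the chromosomes of these genes, and the next region was 250 kb away.

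Dppa3 and Gdf3 stand side by side on chromosome 6, within a stretch that also holds Nanog. Dppa3 (122626424 to 122630271), also called Stella, protects the maternal genome from demethylation after fertilisation, and Gdf3 (122605403 to 122610087) is a ligand of the TGF-beta family. A region of score 23 and width 384 bp (122615417 to 122615800) lay in the interval between them, 5.52 kb from Gdf3 and 10.8 kb from Dppa3. A second region, with the lowest score of the 19 at 18 and a width of 319 bp (122633450 to 122633768), lay 3.34 kb from Dppa3 on the far side, so that Dppa3 stood between it and Gdf3. This was the 1 pair of the 21 with a protein-coding gene wholly between. The next region, at 122775995 to 122776271 with a score of 90, was outside the 100 kb window of both genes, at 146 kb from Dppa3 and 166 kb from Gdf3. It lay inside the glucose transporter gene Slc2a3 and 61.5 kb from Nanog, and was the nearest region to Nanog. Nanog itself (122707489 to 122714633) held none.

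Tdgf1 encodes Cripto, the co-receptor through which Nodal and also Gdf3 signal, and is a gene of 6.55 kb on chromosome 9 (110939608 to 110946158). Its single region (110927829 to 110928069, width 241 bp) lay 11.7 kb beyond the 3′ end and 18.2 kb from the start printed above, with no gene in between. The score of 60 was higher than that of 78.7% of the list. Fam240a on the other side was slightly nearer to it, at 11.1 kb. The surroundings were otherwise empty of regions, the next one being 495 kb away.

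The limit of 100 kb did not separate near values. The most distant assigned regions were those of Sall4 at 66.4 and 67.3 kb and of Prdm14 at 61.4 kb, and the nearest ones beyond the limit were at 141 kb from Klf5 (score 42), 146 kb from Dppa3 (score 90) and 161 kb from Tfcp2l1 (score 31).

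In score and width the regions near these genes lay within the range of the list, with somewhat lower medians. Their scores ran from 18 to 132 with a median of 28 (interquartile range 23 to 46.5, n = 19), against a median of 33 (23 to 55) over all 4973 regions. A score at or above 33 was held by 8 of the 19, against 50.5% of the list. A score at or above 55, the upper quartile of the list, was held by 4, and a score of 100 or more by 1, that of Sall4. Scores were heavily tied, and 6 of the 19 had a score of exactly 23, as did 9.31% of the list. By gene, 6 of 10 had a region of score 33 or more (Prdm14 with 3, and Klf5, Sall4, Nr5a2, Zfp42 and Tdgf1 with 1 each). Among the 8772 protein-coding genes with any region within 100 kb the share was 56.3%, so the count is near that of other genes with a region. Tfcp2l1, Tbx3, Dppa3 and Gdf3 had none. Widths ran from 219 bp, the narrowest in the list, at Prdm14 to 914 bp at Klf5, with a median of 294 bp against 310 bp. A width over 500 bp was seen in 3 of the 19, 2 at Prdm14 and 1 at Klf5, against 23.5% of the list.

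**Figure D2:**
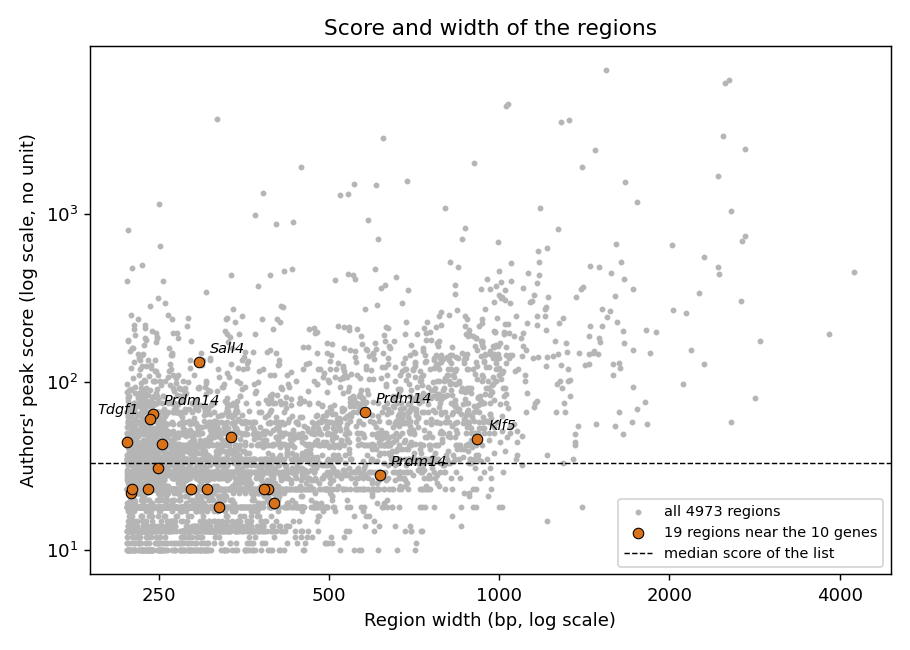
The authors' peak score against width in bp, both on log axes, for all 4973 regions (grey) and the 19 near the 10 genes (orange), with the list's median score as a dashed line. The 19 lie within the main cloud, 8 at or above the median of 33 and 11 below it, and the Sall4 region of score 132 is the highest.

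Several of the regions stood close together. Of the 19 regions, 9 had another region within 10 kb, midpoint to midpoint, against 14.6% of the list's regions on nuclear chromosomes. These were the 3 nearest Prdm14 and the pairs at Klf5, Sall4 and Zfp42. The 9 regions thus stand for 4 places, and the part of the choice of genes in this share was not tested.

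Whether another gene stood between a region and its gene depended on how an overlapping gene was counted. In 15 of the 21 pairs no gene of any class stood wholly between the region and the gene, which is 71.4%, against 44.2% of 13451 such pairs over all protein-coding genes. When any part of another gene counted, the number was 9 of 21, because Gm39592, Clasp1, Atp9a or Gm14261 reached into the interval of the other 6 of those 15. For that count the share over all protein-coding genes was not computed. With protein-coding genes alone the number was 20 of 21, or 95.2%, against 60.9%. One of the 10 genes was the nearest protein-coding gene to 13 of the 19 regions. The other 6 were nearer to or inside Slco5a1, Clasp1, Atp9a, Zfp64 (for 2 regions) and Fam240a. The regions were in protein-coding genes in 3 of 19 cases (Nr5a2, Clasp1 and Atp9a), against 42.0% of the list, and in a gene of any class in 5 of 19, against 52.0%. The surroundings were also sparse, as the 10 genes had a median of 1 other protein-coding gene within 100 kb, with none around Nr5a2, Zfp42 and Tbx3, against a median of 4 for all protein-coding genes. Tdgf1 with 9, Dppa3 with 6 and Gdf3 with 5 stood above that median. The positions of the regions had chosen the genes, so these shares are a description. The median distance of the 21 pairs was 23.5 kb, against 39.7 kb for the pairs over all protein-coding genes. The parts of distance and of gene spacing in these shares were not tested.

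Beyond 100 kb, a distance that had not been used to choose the genes, regions were about as frequent as elsewhere. From 100 kb to 1 Mb on both sides the 10 genes had 43 pairs with a region, against 40.4 at the rates of their chromosomes. In that stretch 8 genes were above the rate of their chromosome and 2 below, Klf5 and Zfp42 with 1 region each against 3.75 and 6.58. Dppa3 and Gdf3 are neighbours and share most of this stretch, so its regions count for both among the 43 pairs. The share of all protein-coding genes above the rate of their chromosome was not computed, so nothing is read from the count of 8. Prdm14 had the most there, 8 against 4.58. By distance, the mean was 2.5 regions per Mb at 100 to 200 kb, 3.83 at 200 to 500 kb and 1.5 at 500 to 1000 kb, against 2.53, 2.39 and 2.28 for all protein-coding genes. Inside the distances used for the choice it was 15.0, 26.7 and 12 regions per Mb at 0 to 10, 10 to 25 and 25 to 50 kb, but 3.0 at 50 to 100 kb, where all protein-coding genes had 2.57.

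**Figure D3:**
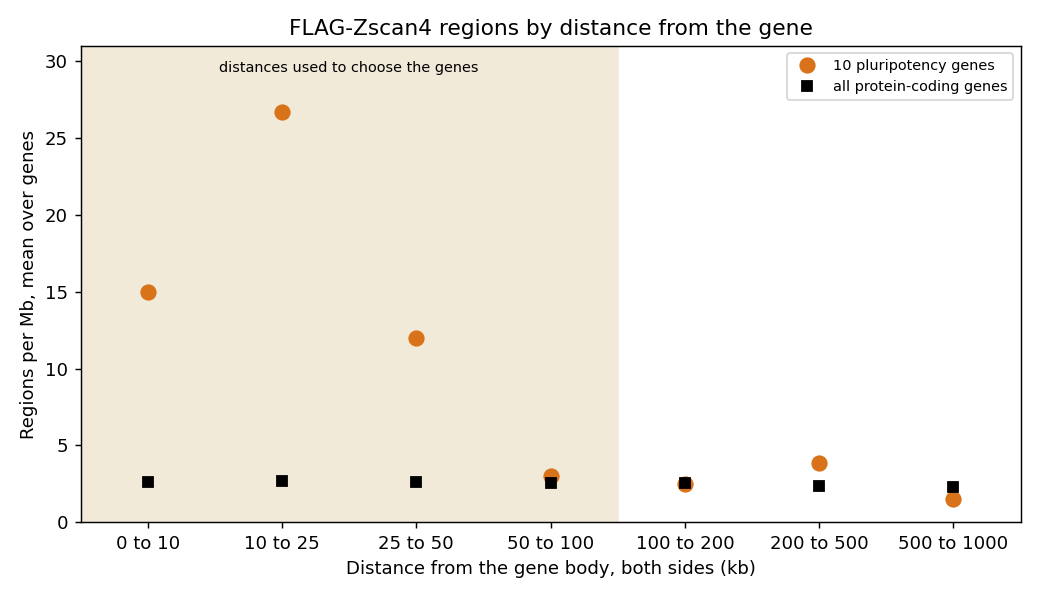
Regions per Mb (mean over genes) by distance from the gene body on both sides in kb, for the 10 genes (orange circles) and all protein-coding genes (black squares), with the distances used to choose the genes shaded. The 10 genes lie between 12 and 26.7 regions per Mb up to 50 kb, within the distances that chose them, and between 1.5 and 3.83 regions per Mb from 50 kb outwards.

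Other genes of the pluripotency network and its signals, 56 in 5 lists, were set beside the 10 genes. Of these, 24 (42.9%) had a region in the body or within 100 kb, near the 40.3% of all protein-coding genes, and 12 (21.4%) had one of score 33 or more, near the 22.7% of all. Genes taken as paralogs of some of the 10 genes, and not picked by a role in pluripotency, formed a sixth list of 23. Kinship was not checked by sequence. Zfp41 in that list shares a name stem with Zfp42, which need not mean a shared family. Of the core factors 1 of 3 had a region, Nanog, by the region of score 90 and by both regions of Gdf3 and Dppa3. Of 20 other naive factors 8 had one, with the highest scores at Dppa2 and its neighbour Dppa4 (50, the same region), Klf4 (45) and Utf1 (34), and Dppa2 had a region of score 10 in its body. In LIF and STAT3 signalling it was 5 of 8, with the highest scores at Jak1 (50), the receptor subunit Il6st (35, and 18 in its body), Stat3 (26) and Jak2 (14).

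In Nodal and activin signalling, the pathway of Tdgf1 and Gdf3, it was 6 of 13 genes. The highest scores were at the signal transducer Smad3 (120, at 15.6 kb), the receptor Acvr1c (106, at 68.4 kb), Smad4 (58, and 35 in its body) and the receptor Acvr2a (42, in its body). Nodal itself had 1 region of score 18 at 43.6 kb. Among formative and primed factors, which come up as naive identity is left, 4 of 12 (33.3%) had a region, against 40.3% of protein-coding genes. These were Foxd3 (99, at 82.6 kb), Otx2 (31), Dnmt3a and Zic2 (23 each). None of the 12 had one within 50 kb, against 26.3% of protein-coding genes, and no difference is read from a list this short. The paralog list of 23 shares the Nodal co-receptor gene Cfc1 with the signalling list. In it 14 (60.9%) had a region, against 40.3% of protein-coding genes, and 2 (8.7%) had one of score 33 or more, against 22.7%. Nothing is read from these shares, since the list is short and some of its genes share regions. The single region of Tbx5 is also that of Tbx3, so it follows from the choice of Tbx3, and Tbx2 and Tbx4 share a region. The highest scores were at Sall1 (75), Prdm2 (53), Ubp1 and Sall3 (29 each). Regions lay in the bodies of Prdm2, Ubp1, Grhl2, Klf7 and Zfp41, and the kinship of Zfp41 with Zfp42 was not checked. Sall1, a paralog of Sall4, had 9 regions within 100 kb, more than any of the 10 genes. It lies on chromosome 8, and whether the rate of that chromosome has a part in this was not tested. Of 7 markers of the 2-cell-like state, in none of these 6 lists, 2 (28.6%) had a region, against 40.3% of protein-coding genes. These were Zscan4c (score 102) and Duxf3 (157), both with the region in the gene body, where 7.7% of protein-coding genes had one. With 7 genes nothing is read from these shares. The coding sequence of Zscan4c is also on the plasmid, and the list does not tell which copy gave the signal.

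**Figure D4:**
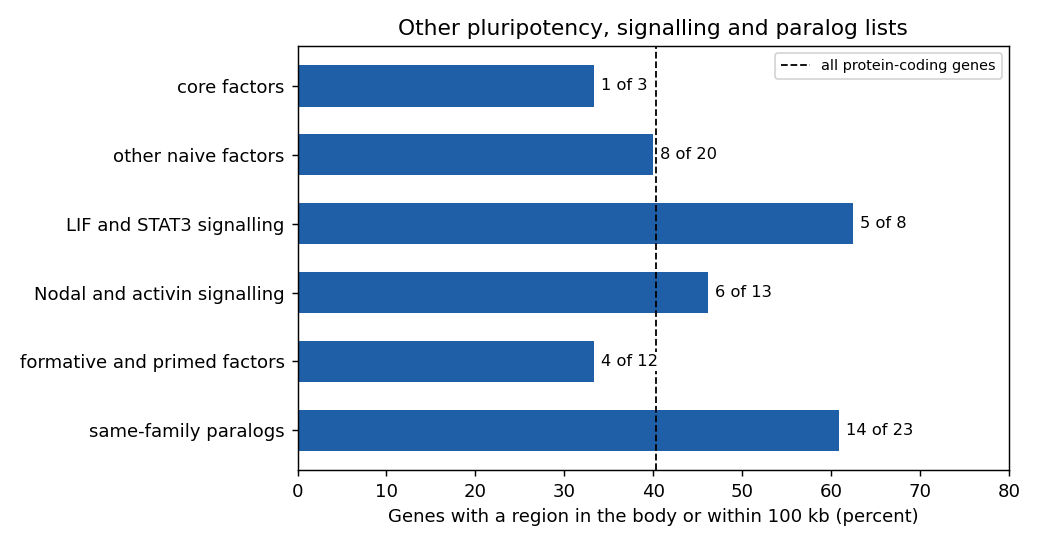
Percent of the genes of each list with a FLAG-Zscan4 region in the body or within 100 kb, with the number of genes beside each bar and all protein-coding genes as a dashed line at 40.3%. The naive factors other than the 10 genes, at 8 of 20, stand at that line, and the 23 genes of the paralog list include 14 with a region.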

How the data were processed

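FLAG-Zscan4 chromatin immunoprecipitation from 1 sample was used as 1 list of regions. Per the submitters' processing notes the authors used cutadapt, Bowtie2, MACS2 and deepTools with build mm10, with no versions or thresholds named there. The score was deposited by the authors as a whole number per region, with no scale stated, and it only ranked regions within this list. Positions were deposited by the authors counted from 0 and are printed counted from 1. Weaker signal is not in such a list, so absence of a region does not show absence of binding.

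Genes came from RefSeq (GRCm38.p6), 49640 of every class and 21792 protein-coding, leaving out genes in the first 3 Mb of autosomes and the X chromosome. Distance ran from the region's midpoint to the nearer end of the gene. A gene stood between when its whole span did. Strand was known for the 4 genes in the table of start windows, so for the other 6 the side is given by coordinate. For chromosome rates, size was the distance between the outermost genes or regions. The assignment was tested on simulated regions. Computation used Python 3.11.15, numpy 2.4.6 and pandas 2.3.3. Alternatives changed the window, the overlap, the merging of regions, the score minimum and the definition of between.

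The genes and lists were chosen with earlier results of these data known. No test was run, because the positions had chosen the genes and there was 1 immunoprecipitation. Genes were named by rule: the 10 genes, protein-coding genes between or around their regions, and, of each list, genes with a region in the body and up to 4 by highest score. Nodal, Cfc1, Slc2a3, Tbx2, Tbx4, Tbx5, Slco5a1, Zfp64, Fam240a and the non-coding genes were named after their values were seen.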

Additional observations from a re-analysis of the deposited data

How the results depend on the processing

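Of 27 alternative values for the 11 results, 16 stayed within 1.5 times the reported value and 11 did not. A window of 10 kb left 4 of the 19 regions, and a window of 50 kb lowered the number of genes of the 6 other lists with a region from 37 of 78 to 23 (29.5%, against 26.3% of protein-coding genes). Keeping regions at or above the median score left 8 regions, 6 pairs with no gene between, 4 pairs on the side of lower and 3 on the side of higher coordinates, 1 upstream pair of 3, 1 downstream pair of 2, and 14 genes of the other lists (17.9%, against 22.7% of protein-coding genes, where with all regions it was 47.4% against 40.3%). These alternatives keep fewer regions by construction. When any part of a gene counted as between, 9 of 21 pairs were free of one, since regions inside Gm39592, Clasp1 and Atp9a and those past Gm14261 then counted as separated. The median of each gene's highest score was 44.5, against 28 over all 19 regions. No paired analysis was possible because every group has 1 sample. Without replicates, read counts or an input track, neither the error of a score nor a limit of detection could be given, and regions of score 18 to 23 sit in the lower part of the list.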
